A study of Mus musculus with 2 samples.

Results

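The miR-103 and miR-107 family consists of 3 microRNA hairpins in the mouse, Mir103-1, Mir103-2 and Mir107, each lying in an intron of a pantothenate kinase gene. They were chosen by gene identifier, with the symbols of GENCODE release M21, and all 3 were found among the 2202 hairpins of the tables. The libraries came from heart tissue of 2 female B6CASTF1/J mice at 25 days of age, first-generation offspring of C57BL/6J crossed with CAST/EiJ, and formed 1 group with no treatment and no contrast. A free-text label gives months beside the same number of postnatal days, and the age field was used. The labels count the animals as biological replicates 1 and 2 and number them separately, although both share a donor identifier, so errors (SD, n = 2) rest on those labels. Reads were counted against the reference genome, and reads from the CAST/EiJ allele were not separated. Replicate 1 held 2050498 hairpin counts and replicate 2 held 2661090. A further 38.5% and 41.6% of reads matched several places and entered no hairpin count.

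A microRNA hairpin is cut into a short duplex, and 1 strand guides the silencing complex to messenger RNAs through its seed, bases 2 to 8. Pantothenate kinases catalyse the first and rate-controlling step of coenzyme A synthesis, the cofactor that carries fatty acids into oxidation, the main fuel pathway of heart muscle. The microRNAs miR-103 and miR-107 are known as regulators of insulin sensitivity through caveolin-1 and as repressors of Dicer, the enzyme that cuts microRNA hairpins. With miR-15, miR-16, miR-195, miR-497, miR-503 and the rodent microRNA miR-322 they form the miR-15 and miR-107 group, whose mature strands share the letters AGCAGC near the 5′ end.

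Mature sequences of the family are shown because their near identity bears on which reads could be counted. All 3 hairpins matched the RefSeq table (GRCm38.p6) by symbol, with the same letters and coordinates as GENCODE M21. Capitals mark the seed.
miR-103-3p: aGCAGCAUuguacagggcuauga
miR-107-3p: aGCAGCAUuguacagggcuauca
miR-103-1-5p: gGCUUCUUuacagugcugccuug
miR-103-2-5p: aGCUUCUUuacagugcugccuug
miR-107-5p: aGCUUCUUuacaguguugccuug

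Mir103-1 and Mir103-2 encode the same miR-103-3p, which differs from miR-107-3p by the single substitution G22C, counted from 1 at the 5′ end of miR-103-3p. No 5p strand is shared between the loci. G1A separates miR-103-1-5p from miR-103-2-5p, C16U separates miR-103-2-5p from miR-107-5p, and both separate miR-103-1-5p from miR-107-5p. The 3p seed occurred in 2 of 1679 mature names of the RefSeq table, miR-103-3p and miR-107-3p. The 5p seed occurred in 3, the 5p strands of this family. Neither seed was found in any other mature name of that table.

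The whole hairpins show how far the likeness extends past the mature strand, with the 3p strand in capitals.
Mir103-1: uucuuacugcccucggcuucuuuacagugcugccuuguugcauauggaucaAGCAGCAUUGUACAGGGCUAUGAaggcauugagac
Mir103-2: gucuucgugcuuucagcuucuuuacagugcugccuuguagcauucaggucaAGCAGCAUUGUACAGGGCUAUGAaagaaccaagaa
Mir107: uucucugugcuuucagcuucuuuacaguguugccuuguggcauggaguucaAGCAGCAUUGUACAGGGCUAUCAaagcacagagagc

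In a global alignment, Mir103-2 and Mir107 were the most alike pair, with 83.9% identical columns, against 80.2% for Mir103-1 with Mir103-2 and 80.5% for Mir103-1 with Mir107. The longest run of identical bases gave another order. It was 27 nt between the miR-103 loci, covering the whole 3p strand, and 24 nt between Mir107 and each of them. In all 3 hairpins the 5p strand spans bases 15 to 37 and the 3p strand bases 52 to 74. The predicted folds (RNAfold) held 33 base pairs in Mir103-1, 33 in Mir103-2 and 36 in Mir107. Mir107 had the lowest predicted free energy, -41.2 kcal/mol, against -35.8 for Mir103-1 and -31.8 for Mir103-2.

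All 3 hairpins lie on the strand of their host, in intron 5 of its principal transcript, which has 7 exons in each gene. Mir107 (ENSMUSG00000065594.1) lies in Pank1 at chr19:34820687-34820773 on the minus strand of mm10, 326 bp after the upstream exon in an intron of 7282 bp. Mir103-2 (ENSMUSG00000065563.1) lies in Pank2, the gene whose human counterpart is altered in a neurodegeneration with brain iron, at chr2:131288052-131288137, 454 bp after the upstream exon in an intron of 5801 bp. Mir103-1 (ENSMUSG00000065553.1) lies in Pank3 at chr11:35782396-35782481, 688 bp after the upstream exon in an intron of 1740 bp. No annotated exon of a host overlaps its hairpin, and the host is the single other gene annotated over each. None of the 3 has another hairpin within 10 kb, so they are not part of a hairpin cluster. The nearest were 70.1 kb from Mir107, 165 kb from Mir103-1 and 248 kb from Mir103-2. The messenger RNAs of the hosts are not measured by these libraries.

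Nearly all counted reads of the family fell on Mir107. Mir107 had 1873 counts in replicate 1, or 913 CPM, with a 95% exact binomial interval of 873 to 956. It had 3683 counts in replicate 2, or 1384 CPM (1340 to 1429). CPM scales a count to a hairpin sum of 1000000 in each library. The mean of Mir107 was 1149 ± 333 CPM (SD, n = 2), and the intervals of the 2 libraries did not overlap. All such intervals treat each read as independent and cover only counting error. Copies made by PCR cannot be distinguished from separate molecules, so the intervals may be too narrow. By mean CPM, 58 of the 288 hairpins detected (at least 10 counts in both libraries) stood above Mir107. It ranked 71 in replicate 1 and 52 in replicate 2 among the 2202 hairpins.

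The pair of miR-103 loci stood near the floor of detection. Mir103-2 had 19 counts in replicate 1, or 9.27 CPM (5.58 to 14.5), and 11 in replicate 2, or 4.13 CPM (2.06 to 7.40). Its mean was 6.70 ± 3.63 CPM, and its intervals overlapped. Mir103-1 had 4 counts in replicate 1, or 1.95 CPM (0.532 to 4.99), and 5 in replicate 2, or 1.88 CPM (0.610 to 4.38). A count of 0 allows up to 3 counts, 1.46 CPM in replicate 1 and 1.13 CPM in replicate 2, and the interval of Mir103-1 reached below those levels in both. Mir103-2 was therefore detected under the count minimum and Mir103-1 was not. Of the reads counted at the miR-103 loci, 82.6% in replicate 1 (61.2 to 95) and 68.8% in replicate 2 (41.3 to 89.0) were at Mir103-2. The interval of replicate 2 includes an even split, so at this depth the loci were not separable in that library.

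**Figure D1:**
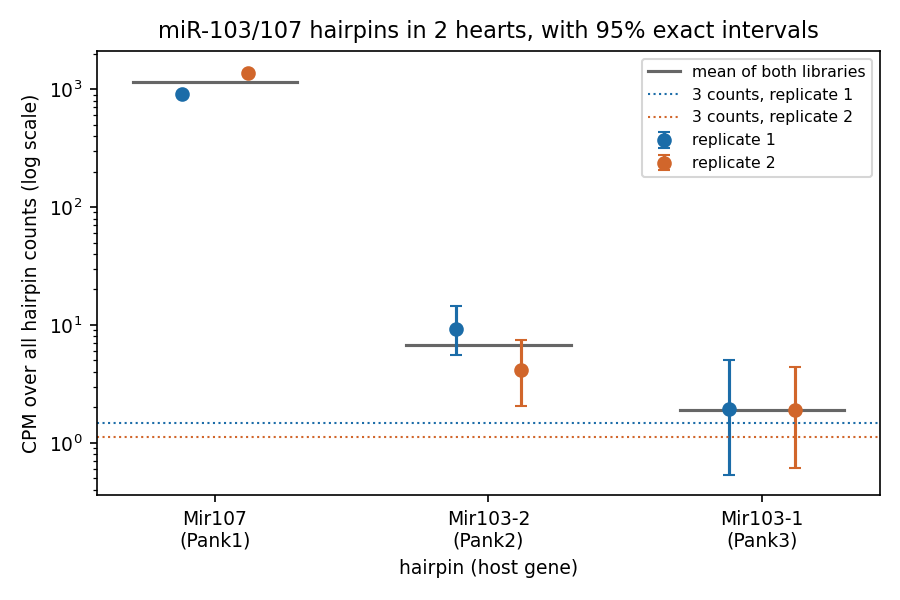
CPM of the 3 hairpins (log axis) in replicate 1 and replicate 2, with 95% exact binomial intervals, the mean of both libraries as a line and the level of 3 counts dotted. Mir107 lies at 913 and 1384 CPM, while Mir103-2 (9.27 and 4.13) and Mir103-1 (1.95 and 1.88) lie near the dotted lines.

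Summed over the family, the level was 925 CPM in replicate 1 and 1390 CPM in replicate 2, a mean of 1157 ± 329 CPM. Mir107 supplied 98.8% of these counts in replicate 1, with an exact interval of 98.2 to 99.2, and 99.6% (99.3 to 99.8) in replicate 2. There were 81.4 Mir107 counts for each miR-103 count in replicate 1 and 230 in replicate 2. These shares describe counted reads only, and the sequences limit which reads could be counted. A read that starts at the first base of miR-103-3p is the same at both loci until it is 25 nt long, 2 bases past the mature end of 23 nt. The labels give a fragment size under 30, with no unit. A read from the first base of miR-107-3p is found in Mir107 alone from 22 nt on, and shorter ones fit all 3 hairpins. These lengths hold for exact matching. How many mismatches the authors' aligner allowed is not given in the sources used here, and miR-107-3p differs from miR-103-3p by 1 base, so the Mir107 counts and its share of the family rest on that setting. From the first base of the 5p strand, reads are found in 1 hairpin alone from 16 nt on for Mir107 and Mir103-2, and at 15 nt, the shortest length searched, for Mir103-1. The search covered the sequences of all 2202 hairpins and no other part of the genome. The tables do not separate the strands of a hairpin, so how many Mir107 counts are miR-107-3p is unknown. The reads matching several places, 1925044 in replicate 1 and 2686901 in replicate 2, are not listed by hairpin, and how many of them are miR-103-3p was not tested. The low counts of Mir103-1 and Mir103-2 therefore do not show that miR-103 was rare in these hearts.

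**Figure D2:**
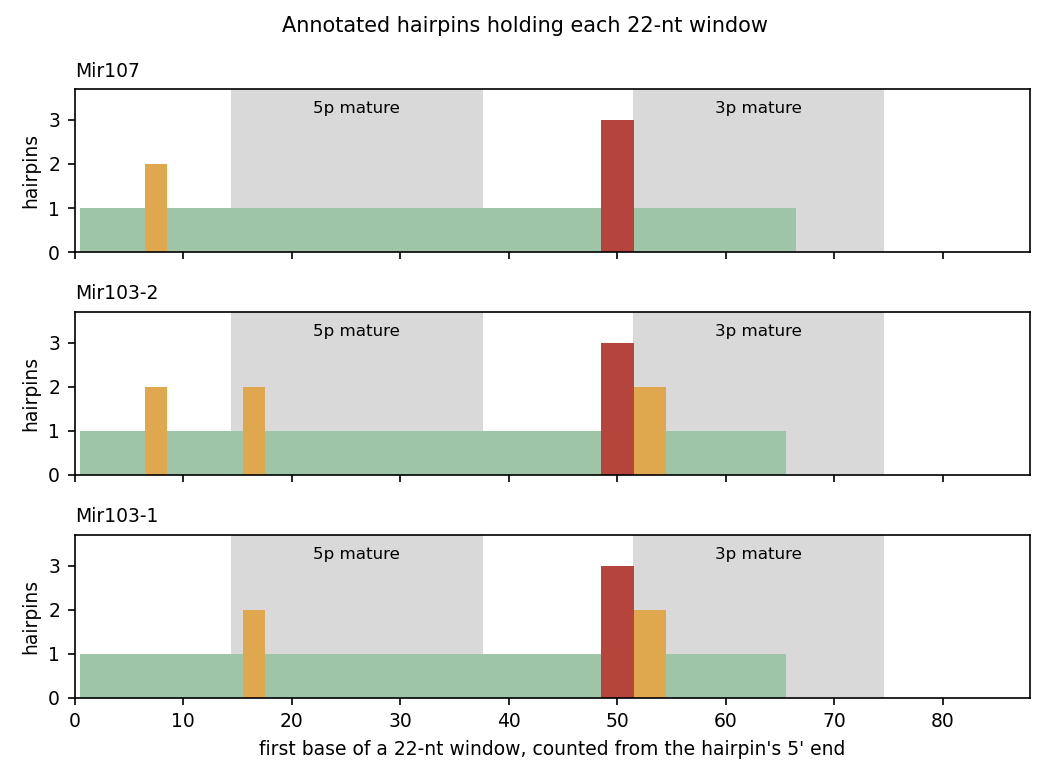
Number of annotated hairpins that hold each 22-nt window of Mir107, Mir103-2 and Mir103-1, by the window's first base, with the mature strands shaded. Of the 22-nt windows, 61 of 66 are found in 1 hairpin for Mir107, 55 of 65 for Mir103-2 and 57 of 65 for Mir103-1, and at the first base of the 3p strand the window is found in 1 hairpin for Mir107 and in 2 for the miR-103 loci.

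The miR-26 family has the same layout, and its counts were divided in the same manner. Its hairpins lie in genes of small phosphatases that act on RNA polymerase II, with Mir26b in Ctdsp1, Mir26a-1 in Ctdspl and Mir26a-2 in Ctdsp2, and both Mir26a loci encode the same miR-26a-5p. Mir26b had 48680 and 75729 counts in the 2 libraries, Mir26a-1 had 10 and 99, and Mir26a-2 had 136 and 71. Mir26b supplied 99.7% ± 0.0531 of the miR-26 counts, and Mir107 supplied 99.2% ± 0.552 of the counts of the miR-103 and miR-107 family. With 2 libraries the difference between these shares was not tested. The mature strands differ in how early they part: reads from the first base of miR-26b-5p are found in Mir26b alone at 15 nt, against 22 nt for miR-107-3p. A read from the first base of miR-26a-5p is the same at both loci until 26 nt.

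**Figure D3:**
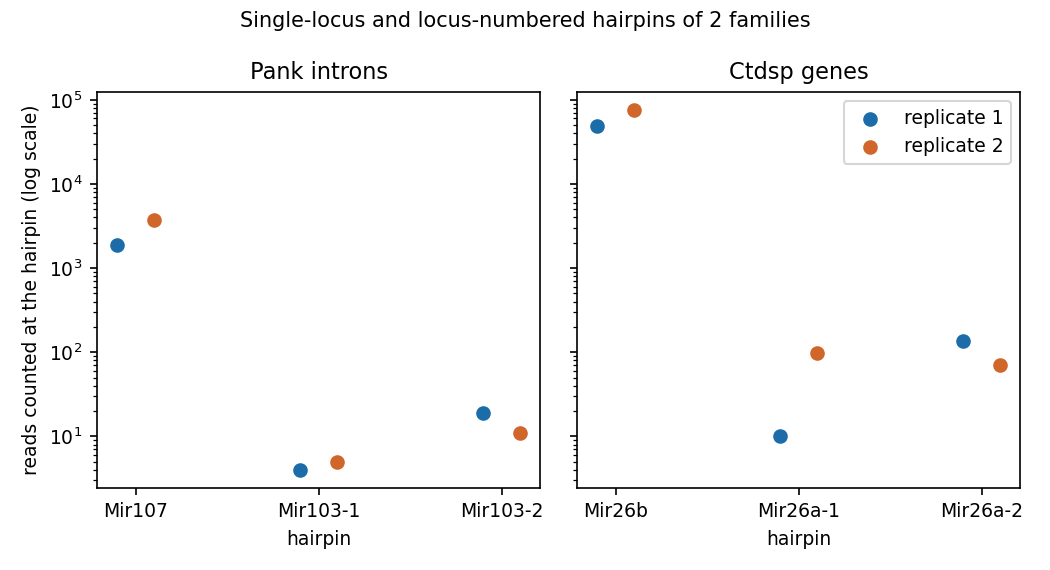
Reads counted at each hairpin (log axis) of the family in Pank introns and of the miR-26 family in Ctdsp genes, in replicate 1 and replicate 2. The single-locus hairpins, Mir107 and Mir26b, lie between 1873 and 75729 reads, and the 4 locus-numbered hairpins lie between 4 and 136.

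Mir103-1 and Mir103-2 belong to 61 hairpins with a RefSeq entry that share 1 mature strand with another hairpin and keep another strand of their own. Of these 61, 32 were detected, or 52.5%, with a median of 93.1 CPM, and Mir103-2 had the lowest mean of the 32. Mir107 belongs to the 904 hairpins with no mature strand found in another hairpin, of which 223, or 24.7%, were detected, with a median of 93.2 CPM. Of the 53 hairpins whose every mature strand is found in another hairpin, 4 were detected, or 7.55%. Some loci of other such pairs in paralogous hosts had few counts: Mir128-2 in Arpp21 had 22 and 20, and Mir218-2 in Slit3 had 20 and 27. Mir128-1 in R3hdm1 stood higher, with 360 and 487 counts, so a shared strand did not go with counts near the floor at every such locus. Mir218-1 in Slit2 had 11 and 1.

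Between the libraries, Mir107 was higher in replicate 2. Scaled by TMM factors, its level was 843 CPM in replicate 1 and 1499 CPM in replicate 2, a log2 ratio of 0.83 (adjusted exact binomial p = 6.48e-95 over 326 tested hairpins). This exact test compares the reads of these 2 libraries and not conditions. It called 204 hairpins, 62.6% of those tested, and 36.2% were called higher in replicate 2, so a call of this kind was common. Of the 2 family members that were tested, 1 was called. Mir103-2 went the other way with a log2 ratio of -0.80 and was not called (adjusted exact binomial p = 0.144). Mir103-1, under 10 counts in both libraries, was not tested. Scaling by library sum moved the median log2 ratio of all tested hairpins from 0.09 to -0.14 and the calls from 118 higher and 86 lower to 76 higher and 117 lower. Relative to that median, Mir107 was 0.74 higher on the log2 scale under either scaling. A change of scaling shifts all log2 ratios nearly alike, so this sameness holds by construction and is no further support.

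The difference in Mir107 was of a size found at many hairpins. Of the 326, 122 (37.4%) lay farther from the median log2 ratio than Mir107. Its coefficient of variation was 29.0%, against a median of 25.1% over the detected hairpins. The biological coefficient of variation, the spread between the libraries beyond counting error, was 0.467 over all tested hairpins. It does not separate differences between animals from those of library preparation. For Mir103-2 the coefficient of variation was 54.2%, from 19 and 11 reads.

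**Figure D4:**
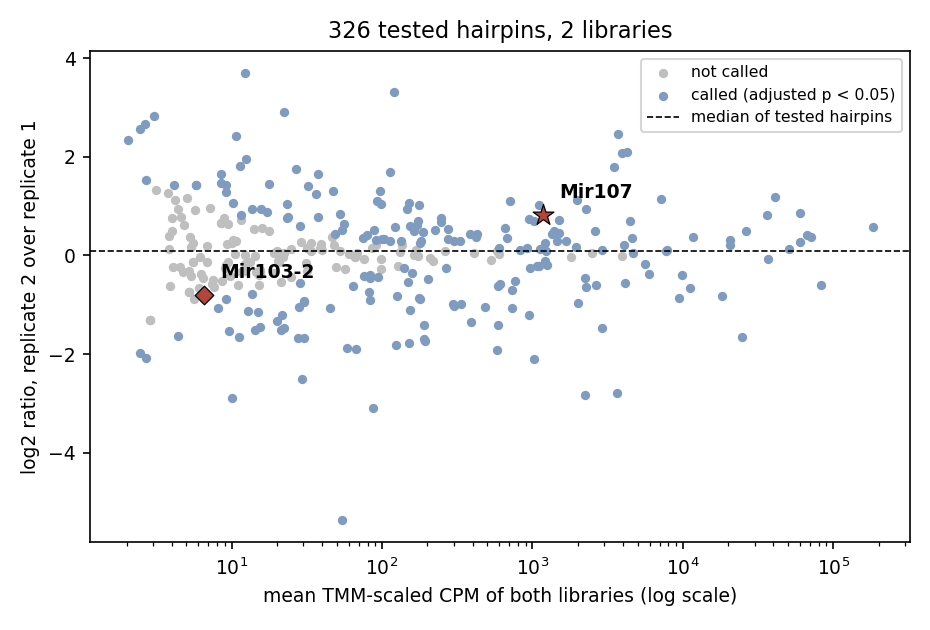
Log2 ratio of replicate 2 over replicate 1 against mean TMM-scaled CPM (log axis) for 326 tested hairpins, with called hairpins in blue, the median dashed, and Mir107 (0.83) and Mir103-2 (-0.80) in red. Mir107 lies above the dashed line within the cloud of called hairpins, and Mir103-2 lies below it among hairpins of few reads.

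Depth, placement of reads and marker microRNAs also moved between the libraries, and their part in the Mir107 difference was not tested. Replicate 2 held more reads that matched several places, as given above. Calls among the markers stand beside 62.6% of all tested hairpins called, 36.2% higher in replicate 2 and 26.4% lower. Summed heart muscle markers (4 of 7 detected) were at 4493 and 8308 CPM, with 1 hairpin called higher in replicate 2 and 2 lower. Mir208a was the one called higher, at 1620 and 5862 CPM, while Mir208b was at 191 and 112 CPM and Mir499, not called, at 2629 and 2317 CPM. The muscle loci Mir1a-1, Mir133a-1 and Mir133a-2 had at most 8 counts, and Mir1a-2 had 94 and 31. These loci carry a locus number, as do the miR-103 loci and the fibroblast loci Mir199a-1 and Mir199a-2. Reads matching several places entered no hairpin count and are missing from the heart muscle and fibroblast sums. The low counts of these loci therefore do not show that their microRNAs were rare in these hearts. Summed smooth muscle markers (2 of 2 detected) were 29354 and 48287 CPM. Leukocyte markers (4 of 4) summed to 4647 and 4648 CPM, but each was called: Mir150 (1343 and 2509 CPM), Mir142 (198 and 287) and Mir223 (125 and 219) higher, and Mir155 (2981 and 1632) lower. The endothelial marker Mir126a was at 108082 and 60950 CPM, fibroblast markers (1 of 3 detected, Mir199a-1 at 0 in both) at 4256 and 511 CPM, and erythroid markers (3 of 3) at 1783 and 869 CPM. The liver marker Mir122 was at 22.9 and 203 CPM. Epithelial markers (1 of 2) summed to 292 and 181 CPM, with Mir205 at 116 and 1.5 CPM and Mir200c at 176 and 180 CPM. In whole tissue, fewer cells of a type and less RNA per cell cannot be told apart.

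Within the miR-15 and miR-107 group, Mir107 held a middle place in replicate 1 and a high one in replicate 2. The group had 13 hairpins, of which 10 were outside the family. Mir497b was among them, on the strand opposite Mir497, with 1 and 0 counts. No miR-497b strand was among the mature names with the shared letters, and Mir497b ranked below Mir107 in both libraries. Selected mature strands are shown because they share the letters AGCAGC, in capitals. These begin at base 1 in this family and at base 2 in the other strands shown, which shifts the seed by 1 base.
miR-107-3p: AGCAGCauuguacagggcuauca
miR-15a-5p: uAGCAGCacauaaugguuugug
miR-16-5p: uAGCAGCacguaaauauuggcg
miR-195a-5p: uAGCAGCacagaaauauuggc
miR-322-5p: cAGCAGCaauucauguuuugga
miR-503-5p: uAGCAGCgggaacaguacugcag

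These letters start at base 1 to 3 in 13 of 1679 mature names of the table, 0.774%, read on the mature strand only. The hairpins of miR-6342, miR-6353 and miR-6419, which are among those names, had 0 counts in both libraries.

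Mir107 ranked 7 of the 13 in replicate 1 and 3 in replicate 2. Its share of the group's counts was 4.54% in replicate 1, with an exact interval of 4.34 to 4.74, and 13.7% (13.3 to 14.1) in replicate 2. The level of the whole group was 20139 CPM in replicate 1 and 10082 CPM in replicate 2, while that of Mir107 was higher in replicate 2. Of the 8 other hairpins tested, 6 were called lower in replicate 2 and 1 higher, with a median log2 ratio of -1.44. The 6 called lower were close neighbours in pairs, each pair on 1 strand. The pairs were Mir15a with Mir16-1 (chromosome 14), Mir15b with Mir16-2 (chromosome 3) and Mir195a with Mir497 (chromosome 11). These calls therefore do not stand for 6 separate loci, and the median weighs the pairs doubly. Over all tested hairpins 26.4% were called lower and 36.2% higher, with a median of 0.09, and by library sum 117 of 326 were called lower. Mir322, from the X chromosome, was the one called higher and had a log2 ratio of 0.70, beside 0.83 for Mir107. Mir503, its neighbour on the X chromosome, had 91.2 and 89.8 CPM and was not called (adjusted exact binomial p = 0.203).

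By mean level the order of the detected hairpins was Mir322, Mir195a, Mir15b, Mir107, Mir15a, Mir497, Mir16-1, Mir16-2, Mir503 and Mir103-2. Most neighbours in this order were not separable. Mir107 at 1149 ± 333 CPM lay next to Mir15a at 1069 ± 1009 CPM, whose values of 1783 and 356 CPM lie on either side of both Mir107 values. Mir15b, above Mir107 at 3037 ± 2272 CPM, had 4643 CPM in replicate 1 but 1430 CPM in replicate 2, close to the 1384 CPM of Mir107 there. Mir16-1 exceeded Mir107 by 19 counts in replicate 1, 1892 against 1873, and lay well below it in replicate 2, 783 against 3683. Mir16-1 and Mir16-2 also share a mature strand, so their counts carry the same limit as those of the miR-103 loci.

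**Figure D5:**
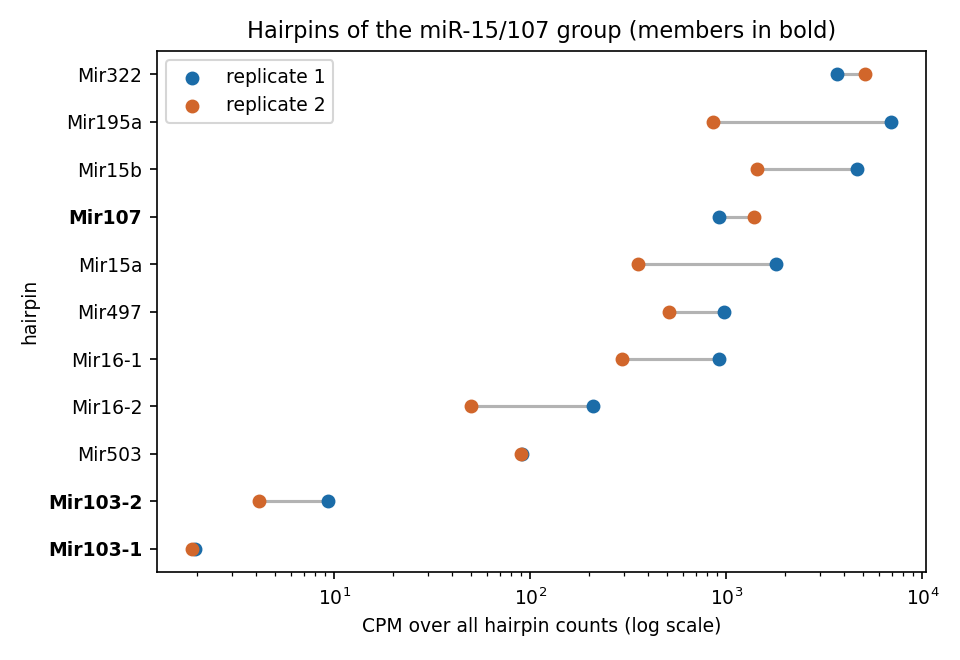
CPM (log axis) of the detected hairpins of the miR-15 and miR-107 group and of Mir103-1 in replicate 1 and replicate 2, ordered by mean, with a line joining the libraries. Mir107 and Mir322 lie higher in replicate 2, and the hairpins of miR-15, miR-16, miR-195 and miR-497 lie lower.

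Other microRNAs of insulin and lipid metabolism moved in both directions. Of 12 such hairpins, 11 were tested, 5 were called higher in replicate 2 and 4 lower, with a median log2 ratio of 0.57. The same over all tested hairpins was 36.2% higher and 26.4% lower, with a median of 0.09. By library sum that median was -0.14, and the ratios of the list fell too, that of Mir378a to 0.34 and that of Mir143 to 0.60. Mir378a, in Ppargc1b, a coactivator gene of mitochondrial metabolism, had a log2 ratio of 0.57, and Mir143 of 0.83, the same as Mir107 to 2 decimals. Mir223 and Mir375 were also called higher (1.03 and 1.47), as was Mir122 (3.32). Mir375 had 9 and 32 counts and did not count as detected. It reached the count minimum only in replicate 2, where it was higher, so its call is no separate support. Mir34a, a target of p53, was lower (-0.96), as were Mir29a (-0.57), Mir27a (-0.18) and Mir27b (-0.18). Mir33, in Srebf2, the gene of a cholesterol regulator, had 16 and 29 counts and Mir370 had 20 and 28, and neither was called. Mir802 had 0 and 1 counts. The list shares Mir143, Mir122 and Mir223 with the marker lists above.

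The hairpins with a mean level next to that of Mir107 were Mir146, Mir328 and Mir17 above (1227, 1223 and 1201 CPM) and Mir324, Mir455 and Mir221 below (1122, 1121 and 1086 CPM). All 6 means lay within the SD of Mir107, 333 CPM, of its mean. The pair of values was most like that of Mir221, a microRNA of vessel walls, with 798 and 1375 CPM, a distance of 0.20 over log2(CPM + 1) in 2 libraries. Mir10a (837 and 1166 CPM, distance 0.28) and Mir532 (772 and 1105 CPM, distance 0.40) followed. Next to Mir103-2 by mean were Mir1949, Gm49347 and Mir701 above and Mir702, Mir5126 and Mir488 below, between 6.23 and 6.95 CPM. Its nearest pairs of values were those of Mir323 (17 and 11 counts), Mir702 (17 and 13) and Mir3061 (17 and 9). With so few reads and 2 libraries, these likenesses are descriptions only.

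No read was counted on the opposite strand of any of the 3 hairpins in either library, and the column that ignores strand held the same counts for them. A count of 0 allows up to 3 reads. No gene is annotated on the other strand of these hairpins, and the counts of Mir107 thus did not depend on which of these columns was read.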

How the data were processed

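MicroRNA-seq libraries of 2 mouse hearts were analysed. Per hairpin, the deposited tables give raw read counts by the authors in 3 columns (either strand, strand of the hairpin, opposite strand), on mm10 with GENCODE M21, per the file headers of the notes deposited with them. Aligner and counter: not given in the sources used here. Counts on the hairpin's own strand were used. Rows naming no hairpin stayed out of totals: 38.5% and 41.6% of reads matched several places, 14.1% and 11.5% were unmapped, and 6.48% and 5.64% lay in no hairpin. All 2202 identifiers matched GENCODE M21.

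CPM was taken over the hairpin sum. Hairpins reaching 10 counts in either library were compared by an exact two-sided binomial test against the ratio of TMM effective sizes (edgeR 4.0.16, R 4.3.3), with Benjamini-Hochberg adjustment over all 326 at 0.05. Log2 ratios (replicate 2 over replicate 1) use scaled CPM plus 1. The biological coefficient of variation is the square root of edgeR's common dispersion with an intercept only. The script was tested on data simulated with counting error alone, so that test does not extend to the spread between these libraries. The libraries differed beyond counting noise and were not merged. Intervals are 95% exact binomial (Clopper-Pearson). P-values measure the spread of reads, not of animals: 2 samples of 1 group allow no test between animals.

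Mature and hairpin sequences came from RefSeq (GRCm38.p6), shared runs from GENCODE M21 transcripts, folds from RNAfold 2.7.2. Members and lists were chosen with earlier results of these data known. Named hairpins were the members, the lists, the 3 hairpins above and the 3 below each detected member by mean CPM, and the 3 nearest by distance over log2(CPM + 1). Alternatives covered the column, denominator, scaling (library sum, DESeq2 1.42.0 size factors), count minimum, pseudocount, locus-numbered hairpins, the 10 highest hairpins and each replicate.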

Additional observations from a re-analysis of the deposited data

Results flagged for a closer look

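Reads matching several places lie outside the hairpin counts used here and numbered 1925044 in replicate 1 and 2686901 in replicate 2. They are listed because they were not analysed by hairpin. As totals of a whole library they say nothing about miR-103, and the share of miR-103-3p in them was not tested.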

How the results depend on the processing

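Mir107 was higher in replicate 2 and called under the 7 alternatives that enter the test, with log2 ratios of 0.60 (library sum) to 0.81 (adjusted exact binomial p from 2.00e-90 to 1.41e-49). Mir103-2 was lower and not called under 5, with log2 ratios of -1.0 to -0.86 (adjusted exact binomial p from 0.0677 to 0.196). The minimum of 50 counts and leaving out locus-numbered hairpins removed it from the test. The pseudocount does not enter the test, and its alternatives gave log2 ratios of 0.83 for Mir107 and of -0.86 and -0.52 for Mir103-2. With a minimum of 1 count, Mir103-1 was tested and not called (log2 ratio 0.05, adjusted exact binomial p = 1.0).

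The level depended on the denominator by construction. The mean of Mir107 was 1623 CPM in the column that ignores strand, where the library sums are smaller, 472 CPM with all reads as the denominator, and 3758 CPM without the 10 highest hairpins. The family sum was 1635, 476 and 3785 CPM. Leaving out each replicate gave 913 to 1384 CPM for Mir107 and a Mir107 share of 98.8 to 99.6%, and no ratio. Called hairpins numbered 165 to 193 in the alternatives, against 204, but the number tested differed. The share called was 27.3% of 648 with at least 1 count and 74.0% of 223 with at least 50, against 62.6%. Those called higher in replicate 2 were 76 of 326 by library sum and 74 of 223 (33.2%) with at least 50 counts, against 118 of 326 (36.2%). The miR-103 loci had only 4 to 19 reads, and reads matching several places entered no hairpin count. The part of depth in these low counts was not tested. No paired analysis was possible because there is 1 group.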
